A study of Mus musculus with 6 samples.

Results

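The class I phosphoinositide 3-kinase (PI3K) pathway was examined through 9 genes of the 13675 listed in the deposited table: the catalytic subunit genes Pik3ca, Pik3cd and Pik3cg, the regulatory subunit genes Pik3r1 and Pik3r5, the inhibitor gene Pik3ip1, the lipid phosphatase gene Inpp5d, and the kinase genes Akt1 and Akt2. They were chosen by symbol, with earlier results of these data known. All 9 were found by their Ensembl IDs, and all 9 passed the filter on low values (an average of 10 normalized counts or more). The samples were CD8+ T cells of OT-I mice, which carry a transgenic T cell receptor for an ovalbumin peptide. Both groups carried CK2α fl/fl, that is, loxP sites in the gene of the catalytic CK2 subunit (Csnk2a1). The group labelled WT (WT-labelled) had no Cre, and the group labelled KO (KO-labelled) carried dLck-Cre, a Cre recombinase driven by the distal Lck promoter, which acts in maturing T cells. No group with Cre and without loxP sites was analysed here, so effects of Cre and of the deletion cannot be told apart. CD45.2 donor cells of each kind were given to separate CD45.1 B6 hosts. The hosts were infected with Listeria monocytogenes expressing ovalbumin, and splenic CD45.2 CD8+ T cells were collected on day 7, with 3 libraries for each label. The growth protocol writes the second genotype as CK2α-/-. The labels give no age or sex, and they do not state that replicates are different mice, so the p-values describe spread among these libraries alone, possibly technical spread.

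Class I PI3K phosphorylates the membrane lipid PIP2 to PIP3, which recruits AKT kinases and Tec family kinases to the membrane. In T cells the δ catalytic subunit acts below the antigen receptor and costimulatory receptors through p85-type regulatory subunits, and the γ catalytic subunit acts below chemokine receptors through its own partners. SHIP-1, the product of Inpp5d, removes a phosphate from PIP3. AKT in turn phosphorylates FOXO factors and keeps them out of the nucleus, and strong PI3K and AKT activity is known to favour effector over memory CD8+ T cells.

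Reads recovered from the normalized counts ranged from 14746864 to 22931296 per library. The targeted gene, Csnk2a1, was higher in the KO-labelled libraries (2828, 2875 and 2786 normalized counts against 1665, 1847 and 1645; limma, adjusted p = 0.000865). A count over the whole gene does not test for loss of single exons, but the value goes against the label, and directions here are stated for the libraries as labelled. CD8+ T cell markers were high in all 6 libraries: the summed level of Cd3d, Cd3e, Cd3g, Cd8a and Cd8b1 was 80977 to 89484 normalized counts in the WT-labelled and 77162 to 82163 in the KO-labelled libraries. B cell transcripts differed between libraries. Of the defining B cell markers, Cd79a, Cd79b and Ms4a1 together summed to 253 to 283 normalized counts in the WT-labelled libraries and to 201, 1233 and 1079 in KO-labelled libraries 1, 2 and 3, and none was at 0 in any library. All 14 B cell markers summed to 3702 to 4332 and 5972 to 9019, and 2 of the 14, Ighm and Cd22, were called higher. Without Ighm and Cd22 the other 12 summed to 494 to 565 in the WT-labelled libraries and to 454, 2604 and 2412 in KO-labelled libraries 1, 2 and 3, so that library 1 was not raised. Myeloid markers, 9 of 10 of which were measured, summed to 900.4 to 1233 and 965 to 1252, erythroid markers to 85.5 to 181 and 94.2 to 128, Cd4 measured 11.9 to 21 and 13.9 to 19.8, and the 1 NK cell marker tested 393 to 903 and 759.8 to 953. Among the 9 myeloid markers none passed and 2 had a negative log2 fold change. S100a9 did not overlap between groups (46, 68.4 and 111 against 119, 140 and 157 normalized counts; limma, adjusted p = 0.0829). S100a8 had a log2 fold change of 0.84 (adjusted p = 0.166).

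Of the 9 genes, 2 were lower in the KO-labelled libraries past the threshold, Pik3ip1 and Pik3r5, and none was higher (limma over 13654 genes, adjusted p below 0.05). Over all genes tested, 3.15% were called lower, 2.04% higher and 5.19% in either direction. edgeR and DESeq2 on the recovered reads each called the same 2 of the 9, against 4.72% and 7.49% of all genes. The fall was 1.54-fold for Pik3ip1 and 1.38-fold for Pik3r5. Of the other 7 genes, 5 had smaller negative log2 fold changes and 2, Pik3cg and Akt1, slightly positive ones, and none of the 7 passed. A negative log2 fold change was thus seen in 7 of the 9 and in 48.7% of all genes tested. In all, 7 of the 9 had KO-labelled values that lay entirely below the WT-labelled ones, as did 13.8% of all genes tested. The median log2 fold change of the 9 genes was -0.20, against 0.01 over all genes tested. These are bulk values, in which fewer cells that express a gene and less RNA per cell cannot be told apart.

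Pik3ip1 encodes a transmembrane protein that binds the catalytic subunits of PI3K and restrains them, also in T cells. It lies on chromosome 11, 3330401 to 3342971 on the plus strand (ENSMUSG00000034614, GENCODE M21 on GRCm38). It measured 1439, 1438 and 1632 normalized counts in WT-labelled libraries 1, 2 and 3 and 993, 967 and 961 in the KO-labelled ones. All 3 KO-labelled libraries were low and close to one another, and the groups did not overlap. The means were 1503 ± 112 and 974 ± 17.2 (SD, n = 3 each), a log2 fold change of -0.62 (SE 0.08, 95% interval -0.79 to -0.45; limma, adjusted p = 0.00231), and its p ranked 50 among the 13654 genes tested. With 1 library left out at a time it passed in 6 of 6 runs, with an adjusted p of 0.000352 to 0.0217. KO-labelled library 1, whose defining B cell markers were under the WT-labelled range, stood at -0.59 (against the WT-labelled mean on the log2 scale), and libraries 2 and 3, in which they were raised, at -0.63 and -0.64. Adding the mean B cell marker level as a covariate gave a log2 fold change of -0.59, and the call was lost (adjusted p = 0.0551). As a mean of log2 values, that level was 5.66 to 5.92 in the WT-labelled libraries. It was 5.79, 7.93 and 7.88 in KO-labelled libraries 1, 2 and 3. The fold change of that fit thus comes largely from KO-labelled library 1, so a lost call cannot tell B cell content from lower precision. Gm12592, a gene on the opposite strand that shares exon sequence with Pik3ip1, measured 21.4 to 41.1 normalized counts, 2.21% of the level of Pik3ip1. The sources used here do not tell if the counting used strand, so how much of the Pik3ip1 value could come from Gm12592 is not known.

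Pik3r5 encodes p101, a regulatory subunit that binds the γ catalytic subunit and couples it to the Gβγ proteins released by chemokine receptors. It lies on chromosome 11 as well, 68432121 to 68497849 on the plus strand (ENSMUSG00000020901). It measured 7855, 8186 and 8309 normalized counts in the WT-labelled libraries and 5427, 6383 and 5866 in KO-labelled libraries 1, 2 and 3. The groups did not overlap, and KO-labelled library 1, whose defining B cell markers were not raised, was the lowest of the 6. The means were 8117 ± 235 and 5892 ± 478 (SD, n = 3 each), a log2 fold change of -0.46 (SE 0.08, 95% interval -0.63 to -0.30; limma, adjusted p = 0.00811). Leaving out single libraries, it passed in 5 of 6 runs and missed without KO-labelled library 3 (adjusted p = 0.0525). With the B cell marker covariate its log2 fold change was -0.58 (adjusted p = 0.0472). For both genes an exact two-sided permutation test gave p = 0.1, the smallest that 3 against 3 libraries can give.

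The 300 bases around the annotated starts of both genes, the 2 that were called, are shown from RefSeq on GRCm38.p6 (250 bases before the start and 50 from it, plus strand), with matches to 3 motifs in capitals: the FOXO core GTAAACA, the GC box GGGCGGG, to which SP and KLF factors bind, and the E-box CAGCTG, to which E proteins bind, each searched on both strands, none overlapping another. The Pik3ip1 window is chr11:3330481-3330780 and the Pik3r5 window chr11:68431875-68432174.
Pik3ip1: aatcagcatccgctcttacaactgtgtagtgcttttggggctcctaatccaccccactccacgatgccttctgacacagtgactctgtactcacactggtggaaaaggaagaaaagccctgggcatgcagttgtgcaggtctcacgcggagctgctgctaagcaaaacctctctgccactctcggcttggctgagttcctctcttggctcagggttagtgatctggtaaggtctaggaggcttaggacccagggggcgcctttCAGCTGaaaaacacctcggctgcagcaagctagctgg
Pik3r5: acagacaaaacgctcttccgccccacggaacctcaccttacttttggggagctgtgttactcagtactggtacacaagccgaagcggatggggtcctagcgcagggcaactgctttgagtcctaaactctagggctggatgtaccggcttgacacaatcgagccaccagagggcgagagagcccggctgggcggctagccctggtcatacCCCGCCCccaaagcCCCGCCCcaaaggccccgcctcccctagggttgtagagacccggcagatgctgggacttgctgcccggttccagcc
The capitals in Pik3ip1 are 1 E-box, 14 to 19 bases into the transcript as counted from the RefSeq start. The whole Pik3ip1 window lies inside the gene as annotated by GENCODE M21, which begins at 3330401. In Pik3r5 they are 2 GC boxes read on the reverse strand, 40 to 34 and 26 to 20 bases before the start. The 2 windows share none of the 3 motifs, and their GC content was 54.7% and 62% (median of all windows 52.7%). Among all 32851 RefSeq windows of this length, 16.3% hold CAGCTG, 25.6% GGGCGGG and 3.65% GTAAACA. The 9 genes have 17 windows in all, of which 5 hold a GC box, 2 an E-box and 2 the FOXO core, the last in Pik3cg and Akt1. A match describes these letters and does not show that a factor binds.

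**Figure D1:**
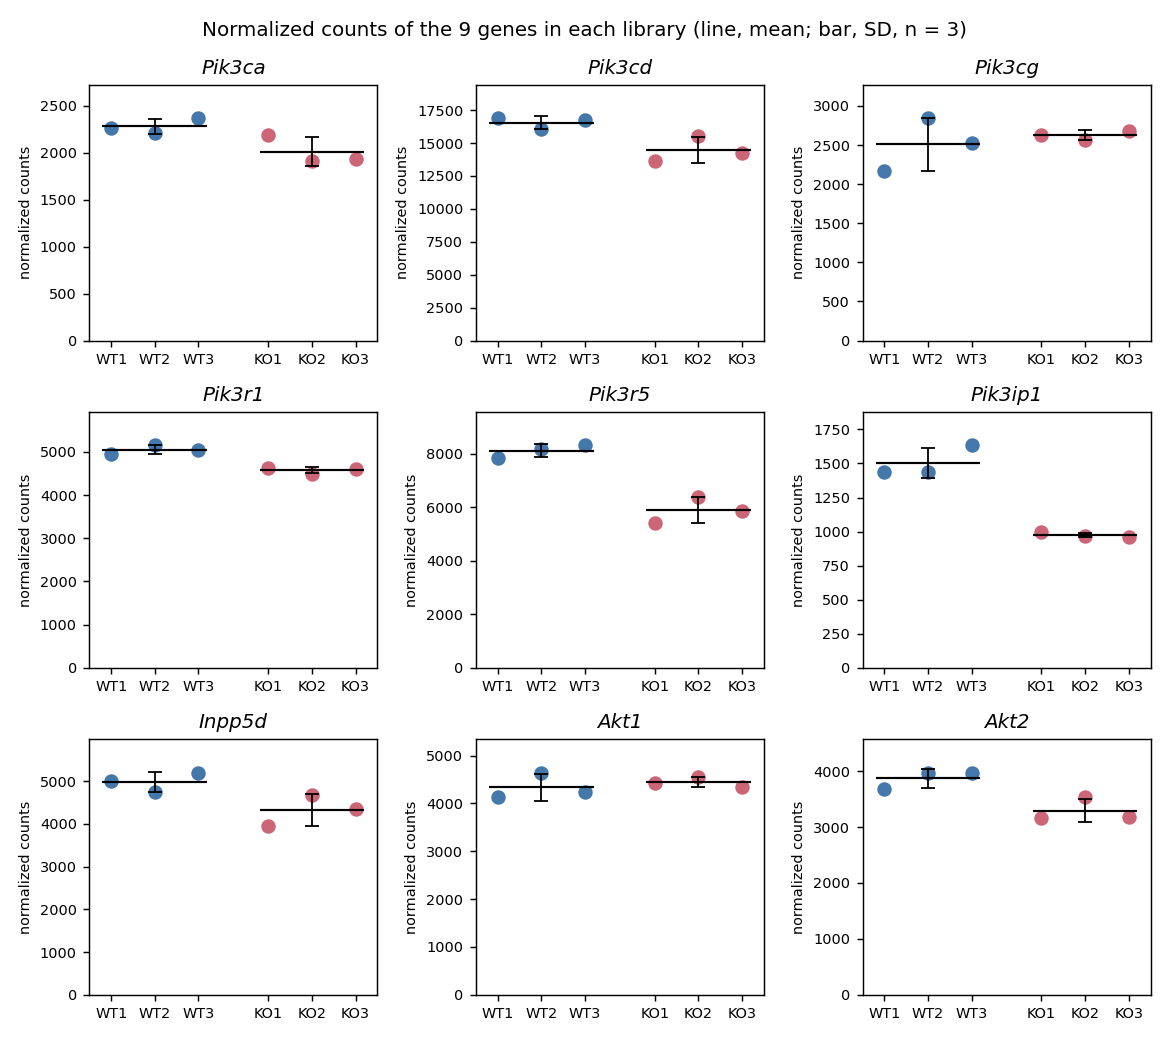
Normalized counts (y axis, from 0) of the 9 genes in the 3 WT-labelled (blue) and 3 KO-labelled (red) libraries, with the mean as a line and the SD as a bar (n = 3). The KO-labelled values of Pik3ip1 (961 to 993) and Pik3r5 (5427 to 6383) lie well below the WT-labelled ones, whereas those of Pik3cg and Akt1 lie among them.

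None of the 3 catalytic subunit genes among the 9 passed. Pik3cd encodes p110δ, the main catalytic subunit of lymphocytes (chromosome 4, 149649168 to 149702571, minus strand). It measured 16879.6, 16028 and 16761 normalized counts in the WT-labelled and 13642, 15541 and 14242 in the KO-labelled libraries. The groups did not overlap. The log2 fold change was -0.20 (95% interval -0.37 to -0.03), a change of -12.7% in the mean that did not pass (limma, adjusted p = 0.174). Pik3ca encodes p110α, the widely expressed catalytic subunit (chromosome 3, 32397671 to 32468486, plus strand). It measured 2259.8, 2209 and 2366 against 2186, 1915 and 1928 normalized counts, with KO-labelled library 1 close to the WT-labelled libraries (log2 fold change -0.18, 95% interval -0.35 to -0.02; adjusted p = 0.19). Its log2 fold change was -0.056 with the B cell marker covariate and -0.059 without KO-labelled libraries 2 and 3. The second value rests on KO-labelled library 1 alone and the first largely so, and they are not separate checks. Pik3cg encodes p110γ, the partner of p101 (chromosome 12, 32173473 to 32208659, minus strand). It measured 2168, 2843 and 2521 against 2632, 2562 and 2684, so that all 3 KO-labelled values lay between the lowest and the highest WT-labelled ones. Its log2 fold change was 0.07 (95% interval -0.14 to 0.28, adjusted p = 0.711). Without WT-labelled library 1 the sign turned (-0.028). The WT-labelled libraries varied more in Pik3cg (coefficient of variation 13.5%) than in any other of the 9 genes (2.03% to 7.45%).

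Pik3r1, on chromosome 13 (101680563 to 101768217, minus strand), encodes p85α and shorter forms, the regulatory subunits that stabilise the α and δ catalytic subunits and bind phosphotyrosine. It measured 4946, 5151 and 5047 normalized counts in the WT-labelled and 4624, 4499.6 and 4611 in the KO-labelled libraries. Both groups were tight and did not overlap, yet the difference was small. The log2 fold change was -0.14 (95% interval -0.28 to -0.0041), a change of -9.29% in the mean that did not pass (limma, adjusted p = 0.219).

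Inpp5d, on chromosome 1 (87620312 to 87720507, plus strand), encodes SHIP-1, the 5-phosphatase that turns PIP3 into PI(3,4)P2 in blood cells. It measured 5003, 4738 and 5202 normalized counts in the WT-labelled libraries and 3945, 4682 and 4353 in the KO-labelled ones. KO-labelled library 1 was lowest, and library 2 was just under the lowest WT-labelled value. The log2 fold change was -0.21 (95% interval -0.38 to -0.03; limma, adjusted p = 0.166).

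Neither AKT gene among the 9 passed. Akt1, on chromosome 12 (112653821 to 112674884, minus strand), encodes the kinase isoform tied to growth and survival, and Akt2, on chromosome 7 (27591552 to 27640826, plus strand), the isoform best known for its role in glucose uptake under insulin. Akt1 measured 4125, 4643 and 4229 normalized counts in the WT-labelled and 4435, 4547 and 4351 in the KO-labelled libraries, with overlapping groups (log2 fold change 0.04, 95% interval -0.12 to 0.19; limma, adjusted p = 0.807). Akt2 measured 3675, 3972.5 and 3971 against 3161, 3538 and 3183, with groups that did not overlap (log2 fold change -0.23, 95% interval -0.40 to -0.07; limma, adjusted p = 0.0966). Akt2 had the smallest p of the 7 genes that did not pass. Without 1 library at a time its adjusted p was 0.0842 to 0.318.

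**Figure D2:**
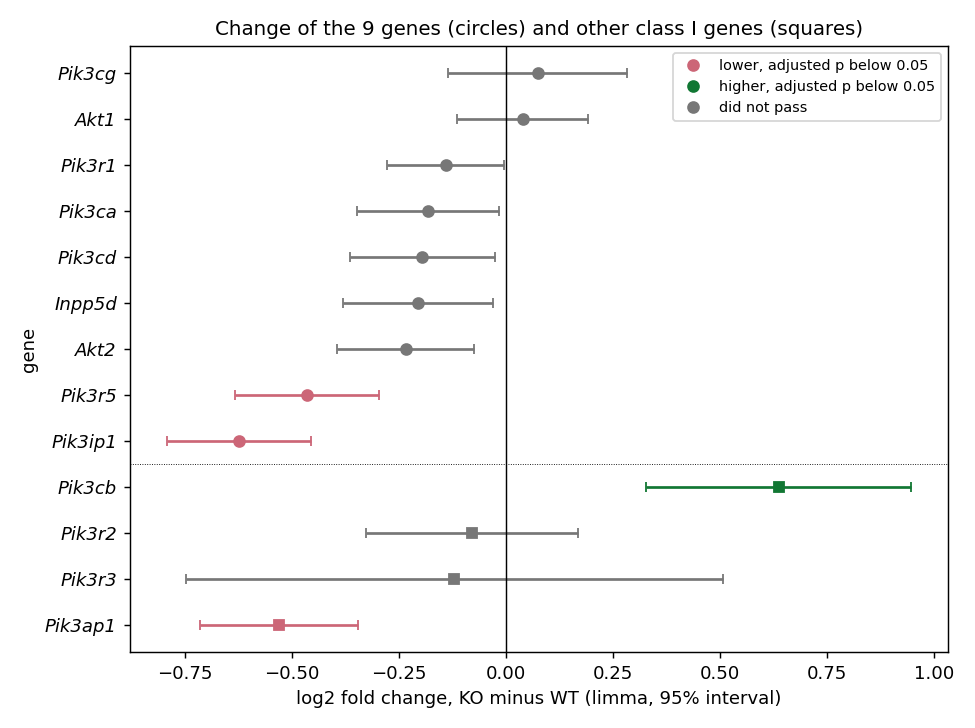
Log2 fold change of KO-labelled minus WT-labelled libraries (x axis) with its 95% interval from limma for the 9 genes (circles) and 4 other class I subunit and adaptor genes (squares), coloured by whether they passed the threshold. Pik3ip1 (-0.62), Pik3r5 (-0.46) and Pik3ap1 (-0.53) stand to the left and Pik3cb (0.64) to the right, and the intervals of Pik3cg and Akt1 include 0.

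Per kilobase of exon, Pik3cd was the most abundant of the 9 transcripts in both groups, at 2645 ± 73.7 normalized counts per kilobase in the WT-labelled and 2313 ± 155 in the KO-labelled libraries (SD, n = 3). That WT-labelled level was above that of 97.7% of the genes tested. Pik3r5 (1462 ± 42.3), Akt1 (1057 ± 66.9), Inpp5d (655 ± 30.6), Akt2 (543 ± 24), Pik3r1 (501 ± 10.2), Pik3ip1 (352 ± 26.2), Pik3cg (298 ± 40.1) and Pik3ca (250.7 ± 8.78) followed in normalized counts per kilobase in the WT-labelled libraries. In that group the ranges of Pik3ip1 and Pik3cg, and of Pik3cg and Pik3ca, overlapped, and those of the other neighbours did not. In the KO-labelled libraries Pik3r5 (1062 ± 86.2) followed Akt1 (1085 ± 24.1), and Pik3ip1 (228 ± 4.03) followed Pik3cg (312 ± 7.25). There the ranges of Pik3r5 and Akt1, of Akt2 (462 ± 29.7) and Pik3r1 (454 ± 6.8), and of Pik3ip1 and Pik3ca (221 ± 16.8) overlapped. These overlaps hold only for the union of exons as the length: with the longest transcript no neighbours in the order overlapped in either group, and KO-labelled Pik3r5 (1348 ± 109) lay below Akt1 (1652 ± 36.7) and Pik3ip1 (378 ± 6.7) above Pik3ca (225 ± 17.2). Of the transcripts of the 4 class I catalytic subunits per kilobase, Pik3cd made up 82.3% ± 1.29 in the WT-labelled and 80.3% ± 1.65 in the KO-labelled libraries. Pik3cg made up 9.28% ± 1.35 and 10.9% ± 0.696, Pik3ca 7.8% ± 0.17 and 7.71% ± 0.889, and Pik3cb, the β subunit gene, 0.624% ± 0.0693 and 1.09% ± 0.166 (SD, n = 3 each).

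**Figure D3:**
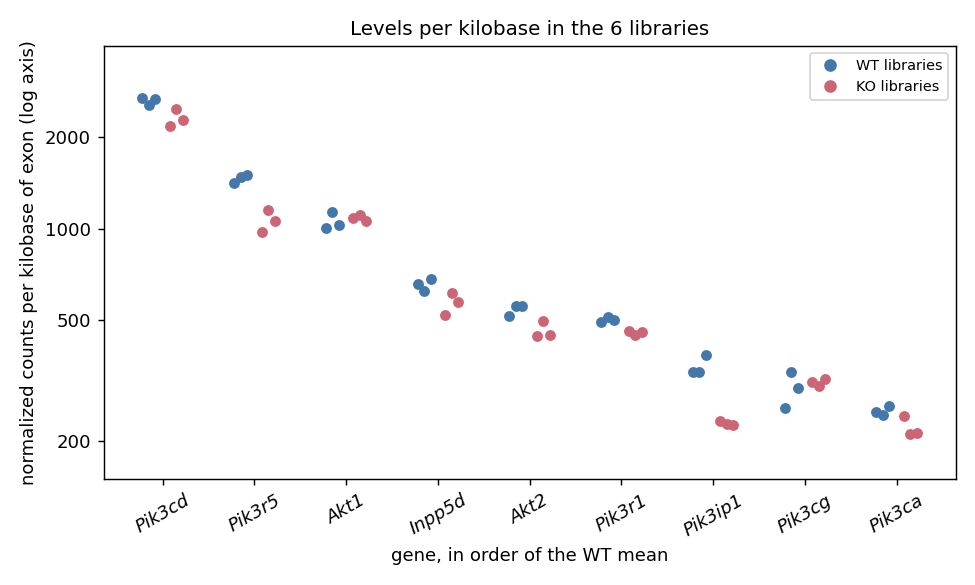
Normalized counts per kilobase of exon (log axis) of the 9 genes in each WT-labelled (blue) and KO-labelled (red) library, in order of the WT-labelled mean. Pik3cd is highest in all 6 libraries, and in the KO-labelled libraries the points of Pik3r5 overlap those of Akt1 and the points of Pik3ip1 those of Pik3ca, which they do not with the longest transcript as the length.

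Ratios between 2 genes of one library do not depend on how libraries were scaled. Of 10 ratios compared, 5 had groups that did not overlap. The 10 pairs were picked by hand, and the share over other pairs of genes was not computed. Pik3r5/Pik3cg, Pik3ip1/Pik3cd and Pik3ip1/Pik3r1 each hold a gene called lower, so they in part restate its fall. The exact two-sided permutation p of each of the 5 was 0.1, the smallest possible, and 0.2 after adjustment over the 10, so that none passed. The ratio of Pik3r5 to Pik3cg, the 2 chains of one complex, was 4.96 ± 0.566 per kilobase in the WT-labelled and 3.41 ± 0.335 in the KO-labelled libraries (SD, n = 3 each; difference of log2 ratios -0.54). The ratio of Pik3ip1 to Pik3cd, an inhibitor to its target, was 0.133 ± 0.009 and 0.0989 ± 0.00778 (-0.43). Pik3ip1 to Pik3r1 was 0.703 ± 0.0541 and 0.502 ± 0.00873 (-0.48), Akt1 to Akt2 1.95 ± 0.0906 and 2.35 ± 0.105 (0.27), and Akt2 to Pik3cg 1.84 ± 0.177 and 1.48 ± 0.128 (-0.31). Against these, Inpp5d kept close to Pik3cd in every library. Their ratio was 0.248 ± 0.00684 in the WT-labelled and 0.246 ± 0.00702 in the KO-labelled libraries (exact permutation p = 0.9, n = 3 each). Pik3cd and Inpp5d also had the most alike profiles of the 36 pairs among the 9 genes, with a root mean square difference of 0.03 on the log2 scale over the 6 libraries after each was centred on its mean. In both, and in Akt2 and Pik3r5, the lowest value was in KO-labelled library 1, and of the 3 KO-labelled libraries the highest was library 2, 1 of the 2 with raised B cell markers. With the B cell marker covariate the log2 fold change went from -0.20 to -0.29 for Pik3cd, from -0.21 to -0.34 for Inpp5d, from -0.23 to -0.29 for Akt2 and from -0.46 to -0.58 for Pik3r5. These covariate values rest largely on KO-labelled library 1.

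**Figure D4:**
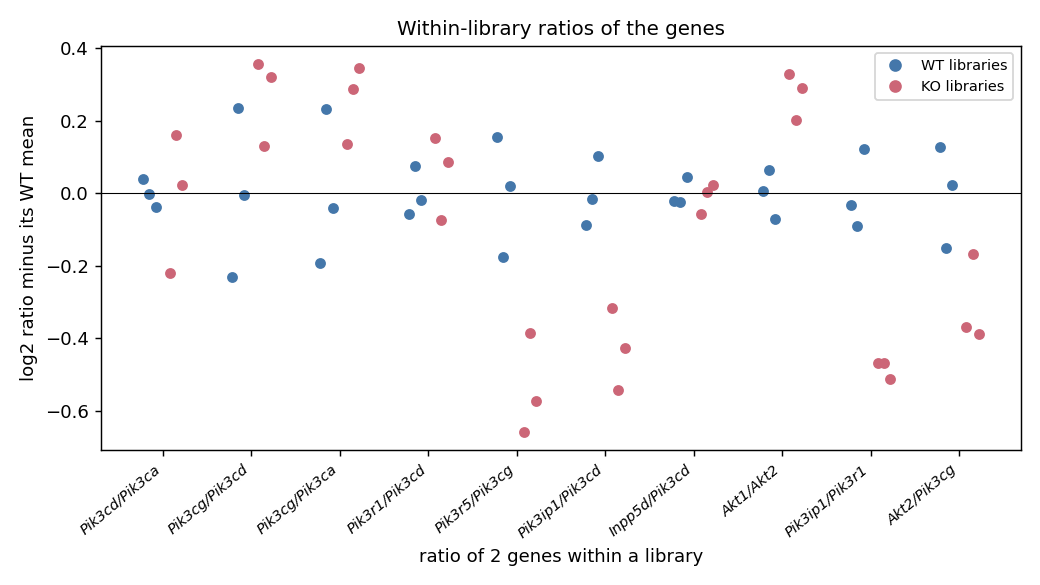
Log2 ratio of 2 genes per kilobase within each library, minus the mean of that ratio over the WT-labelled libraries (y axis), for 10 ratios in WT-labelled (blue) and KO-labelled (red) libraries. Pik3r5/Pik3cg, Pik3ip1/Pik3cd, Pik3ip1/Pik3r1 and Akt2/Pik3cg lie lower and Akt1/Akt2 higher in all KO-labelled libraries, and Inpp5d/Pik3cd stays near 0.

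The genes whose profiles were most like that of Pik3ip1, out of 10514 compared over the 6 libraries, were Atf7ip (root mean square difference 0.03 on the log2 scale), Card19 (0.03) and N4bp1 (0.05). Their log2 fold changes were -0.62, -0.68 and -0.59, close to that of Pik3ip1 by the way they were chosen. Most like Pik3cg were Tuba1a, Gtf2h3 and Suclg2 (0.03 each). Likeness over 6 libraries is a description of these samples.

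Around the 9 genes, 86 further genes of the pathway were tested in 8 lists. Of these, 15 fell, 3 rose and 68 did not pass (limma, adjusted p below 0.05). Over all genes tested, 3.15% were called lower and 2.04% higher. The lists were drawn up with earlier results of these data known, so their shares can be raised by that choice alone. The median log2 fold change of the 86 was -0.12, against 0.01 over all genes. The count moved with single libraries, as did that over all genes. It was 26 without WT-labelled library 2, 10 without WT-labelled library 1 or KO-labelled library 1, 7 without KO-labelled library 2, and 4 without WT-labelled library 3 or KO-labelled library 3. Calls over all genes, 708 in the main fit, were 2028 without WT-labelled library 2, and 370 and 440 without WT-labelled or KO-labelled library 1. They were 320 without KO-labelled library 2, 228 without WT-labelled library 3 and 200 without KO-labelled library 3. All 18 passed without WT-labelled library 2. Inpp4b, Sesn1 and Bcl2l11 passed in 6 of 6 such runs and Pik3ap1 in 5, with an adjusted p of 0.0502 without KO-labelled library 3. With the B cell marker covariate 1 of the 18 stayed called, Bcl2l11 (log2 fold change -1.07, adjusted p = 0.0169). Over all 13654 genes tested 88 were called with it, against 708 in the main fit. Inpp4b (0.0935) and Sesn1 (0.103) were lost with the covariate, and also without a variance trend (0.0625 and 0.0587). Their log2 fold changes with the covariate were -0.62 and -0.49, against -0.64 and -0.59 in the main fit. Each of the other 14 was lost in 2 or more of the runs.

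Of 4 other class I genes, 1 rose and 1 fell, against 2.04% called higher and 3.15% called lower over all genes tested. Pik3cb, which encodes p110β, rose 1.55-fold, with means of 144 ± 16 and 225 ± 24.5 normalized counts (SD, n = 3 each; limma, log2 fold change 0.64 with an SE of 0.14, adjusted p = 0.0279). It was lost without WT-labelled library 3 (adjusted p = 0.128), KO-labelled library 1 (0.104) or KO-labelled library 3 (0.122). Pik3ap1, which encodes the adaptor BCAP that links receptors to PI3K, fell 1.44-fold, with means of 2383 ± 188 and 1649 ± 124 (limma, adjusted p = 0.00695). It measured 1574, 1792 and 1581 in the KO-labelled libraries, all below the lowest WT-labelled value of 2216. BCAP is best known from B cells. With the B cell marker covariate the log2 fold change of Pik3ap1 was -0.59, against -0.53 without it, and the call was lost (adjusted p = 0.0695). The regulatory subunit genes Pik3r2 (log2 fold change -0.08) and Pik3r3 (-0.12) did not pass. None of the 4 class II and class III PI3K genes passed, among them Pik3c3 (0.02), whose kinase makes the lipid of early endosomes.

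Of 13 phosphoinositide phosphatase genes, 2 fell and 1 rose, against 3.15% called lower and 2.04% called higher over all genes tested. Inpp4b, a 4-phosphatase that acts on the PI(3,4)P2 that SHIP-1 makes, fell 1.56-fold, with means of 977 ± 121 and 623 ± 23.6 normalized counts (SD, n = 3 each; limma, adjusted p = 0.00614). Inpp4a, its relative, fell 1.36-fold (adjusted p = 0.0487), a call kept in 1 of 6 runs that left out 1 library and lost with TMM factors (adjusted p = 0.0536), quantile normalization (0.0827) and edgeR (0.0527). Inppl1, which encodes SHIP-2, the widely expressed relative of SHIP-1, rose from 334 ± 22.7 to 499 ± 47.4 (1.49-fold, adjusted p = 0.0133), and was lost without WT-labelled library 3 (0.0588) or KO-labelled library 2 (0.0592) or 3 (0.0787).

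Of 11 genes of AKT activation and dephosphorylation none passed. Rictor, the scaffold of the mTOR complex that phosphorylates AKT (-0.26, adjusted p = 0.177), and Ppp2ca, a catalytic subunit of phosphatase 2A (-0.21, adjusted p = 0.172), had the smallest p. Of 18 receptors and PIP3-binding proteins, 4 fell and none rose, against 3.15% called lower and 2.04% called higher over all genes tested. The 4 were Icos, a costimulatory receptor that recruits PI3K (1.28-fold lower, adjusted p = 0.0416), Gab2, a docking protein (1.67-fold lower, 0.0279), Arap2, a PIP3-binding regulator of small GTPases (1.33-fold lower, 0.0165), and Cyth4, a cytohesin (1.30-fold lower, 0.0499). Icos, Gab2 and Cyth4 passed only in the run without WT-labelled library 2 among those that left out 1 library, and Arap2 was lost without WT-labelled library 3 (0.083) or KO-labelled library 2 (0.0549). Cyth4 was also lost with a pseudocount of 5 (0.0501), no filter (0.05003), TMM factors (0.0536), quantile normalization (0.0849) and edgeR (0.0573), and Icos with quantile normalization (0.0568) and edgeR (0.0501). Btk, a Tec family kinase of B and myeloid cells, measured 31.7, 6.94 and 10.1 normalized counts against 4.63, 47.9 and 67.5, with high values in the 2 KO-labelled libraries whose B cell markers were raised.

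Of 12 AKT substrate genes 1 fell and 1 rose, against 3.15% called lower and 2.04% called higher over all genes tested. Foxo3 fell 1.39-fold (2504 ± 472 to 1782 ± 63, adjusted p = 0.0486) and Tbc1d4, a regulator of glucose transporter traffic, rose 1.70-fold (155 ± 35.4 to 260.2 ± 21.3, adjusted p = 0.0257). Both were called in 1 of 6 runs that left out 1 library, that without WT-labelled library 2, and Foxo3 was lost with TMM factors (0.0524), quantile normalization (0.0777) and edgeR (0.0508). Foxo1, at -0.08 on the log2 scale (95% interval -0.23 to 0.07), did not pass (adjusted p = 0.541). Of 14 transcripts linked to FOXO factors or KLF2, 6 fell and none rose, against 3.15% of all genes called lower. This list too was drawn up with earlier results of these data known. With the B cell marker covariate 1 of the 6, Bcl2l11, stayed called, and 88 of the 13654 genes tested were called. That fit rests largely on KO-labelled library 1. In it the log2 fold changes of Klf2, Cited2, Ccng2 and S1pr1 were -0.47, -0.40, -0.33 and -0.36. In the main fit they were -0.52, -0.43, -0.43 and -0.29. Bcl2l11, which encodes the death-promoting BIM, fell 1.97-fold, with means of 1571 ± 137 and 797 ± 42.5 normalized counts (SD, n = 3 each; limma, adjusted p = 0.000427). Sesn1, a sestrin, fell (log2 fold change -0.59, adjusted p = 0.00604), Klf2 1.43-fold (0.0141), Cited2 1.35-fold (0.017), Ccng2, a cyclin tied to arrest, 1.34-fold (0.0102) and S1pr1 1.23-fold (0.0378), which was lost with edgeR (0.0501) and quantile normalization (0.0997). With 1 library left out at a time, Cited2 and Ccng2 passed in 4 of 6 runs, Klf2 in 2 and S1pr1 in 1. Il7r, often used as a readout of FOXO1, did not pass (log2 fold change 0.15). Of 10 G protein and Ras genes 1 fell, against the same 3.15%. It was Rasgrp1, the activator of Ras below the T cell receptor (1.27-fold lower, adjusted p = 0.0141), which was lost without WT-labelled library 3 (0.0716) or KO-labelled library 2 (0.0562) or 3 (0.0779).

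**Figure D5:**
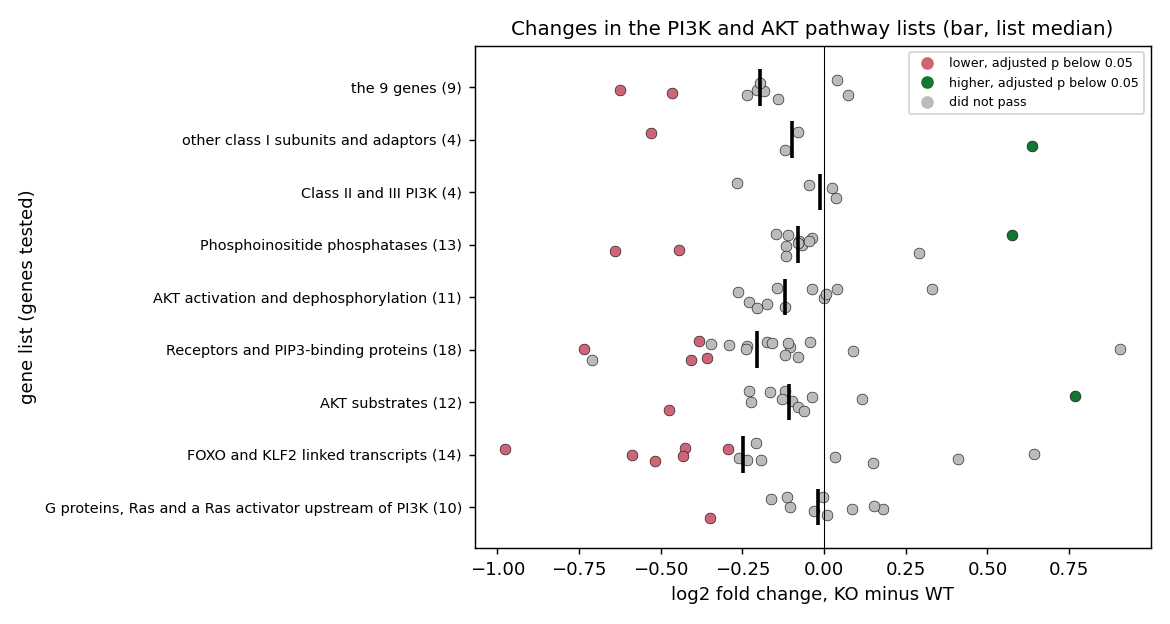
Log2 fold change of KO-labelled minus WT-labelled libraries (x axis) for each gene of the 9 and of the 8 wider lists (y axis, number of genes tested in brackets), coloured by whether it passed the threshold, with the list median as a bar. Of the FOXO and KLF2 linked transcripts 6 of 14 fell past the threshold, against 3.15% of all genes tested. The only rises past the threshold are Pik3cb, Inppl1 and Tbc1d4. With the B cell marker covariate Bcl2l11 alone of the 6 fell past it, and 88 of the 13654 genes tested were called.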

How the data were processed

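RNA was sequenced from 3 WT-labelled and 3 KO-labelled samples. The authors deposited normalized counts, a signal per gene that appears, from the values, to be the gene count divided by 1 factor per library. 100% of values were whole multiples of the step of their column (tolerance 0.01). The submitters' processing notes name mm10. Not given in the sources used here are the aligner, the counter, the annotation and whether strand was used. Ensembl IDs were matched to GENCODE M21 on GRCm38, the same assembly as mm10 (13653 of 13675).

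limma 3.58.1 (R 4.3.3; variance trend, two-sided) was fitted to log2 of the normalized count plus 1 for the 13654 genes with a mean of at least 10, with Benjamini-Hochberg adjustment over all of them and a call below 0.05. All p-values are from that fit unless another test is named. Fold changes are on that scale, which understates changes of low genes. The step was also run on simulated counts without differences in B cell transcripts between libraries, so it was not checked for such differences. Levels per kilobase used the union of annotated exons. edgeR 4.0.16 quasi-likelihood and DESeq2 1.42.0 were run on the recovered reads (645 and 1023 genes called, against 708). All pairs of libraries differed beyond sampling noise (lowest chi-square over its degrees of freedom, 5.32, between WT-labelled libraries 1 and 3). WT-labelled library 2 was further from them (19.1 and 18.5) than from KO-labelled libraries 1, 2 and 3 (15.8, 12.9 and 14.6). Leaving out WT-labelled library 2 took the calls over all genes from 708 to 2028.

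The 9 genes, the lists, the alternatives and the rule for named genes (all 9, each list gene past the threshold or up to 2 with the smallest p, the 3 most alike profiles of the member with the smallest p in each direction, the markers and the targeted gene) were chosen with earlier results of these data known. Pik3r2, Pik3r3, Pik3c3, Foxo1, Il7r, Bcl6, Ccr7 and Btk were added after their values were seen. Pik3r6, Pik3c2g, Inpp5j, Tcl1, Foxp3, Ncr1 and Marco were not analysed here.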

Additional observations from a re-analysis of the deposited data

How the results depend on the processing

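Pik3ip1 and Pik3r5 were both called in all alternatives but 4: no variance trend, the B cell covariate, and the runs without KO-labelled library 3 and without KO-labelled libraries 2 and 3. Without a variance trend 1 remained, Pik3ip1 (Pik3r5, adjusted p = 0.0721), with the mean B cell marker level as a covariate 1, Pik3r5, and without KO-labelled libraries 2 and 3 together 0 by limma (5 of the 9 at an unadjusted p below 0.05), a run with 1 KO-labelled library that is assumed to vary like the controls. Leaving out 1 library at a time gave 1 to 2. The log2 fold changes of Pik3ip1 and Pik3r5 without KO-labelled libraries 2 and 3 were -0.59 and -0.58. The log2 fold change of Pik3cg reversed to -0.028 without WT-labelled library 1, and leaving out single libraries gave -0.028 to 0.168. Calls over all genes numbered 141 without a variance trend, 197 with the replicate block, 88 with the B cell covariate, 0 without KO-labelled libraries 2 and 3 (1861 at an unadjusted p below 0.05), and 200 to 2028 with 1 library left out. Wider pathway calls, 18 in the main analysis, numbered 2, 5, 1, 0 and 4 to 26 in the same order. The replicate block used numbers that the titles share, which did not pair the libraries (correlations of same-numbered deviations -0.55, -0.35 and -0.27). It kept both members' calls (adjusted p = 0.0263 and 0.0465). With quantile normalization 3 of the 9 genes had an unadjusted p below 0.05 by limma, against 7 in the main fit. The 5 negative log2 fold changes that did not pass became -0.14 (Pik3ca), -0.15 (Pik3cd), -0.06 (Pik3r1), -0.12 (Inpp5d) and -0.17 (Akt2). With the filter at a mean of 50, 482 of 10515 genes were called lower and 281 higher. Of the 10 ratios, 5 to 7 had groups that did not overlap with 1 library left out. Taking the longest transcript as the length kept the order of all 9 levels but removed every overlap between neighbours. The cause of these differences was not tested, other than that fewer libraries entered some fits.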
